A study of Oryctolagus cuniculus with 6 samples.

Results

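The mitochondrial genome encodes a handful of subunits of respiratory complex I, and 6 of them lie on its heavy strand: ND1, ND2, ND3, ND4L, ND4 and ND5. They were followed here as 6 of the 23669 Ensembl gene IDs counted in left ventricle from sham-operated adult rabbits (Oryctolagus cuniculus). The left ventricle is the main pumping chamber of the heart. All 6 libraries belong to 1 group. In each animal a suture was placed loosely around a coronary artery, without closing it, and the heart was taken 3 weeks later and rinsed of blood. No strain, sex or genotype is given, and there is no unoperated or infarcted group among the samples used here. Libraries 1 to 3 carry the number 13872 at the start of their titles and libraries 4 to 6 carry 14285, and the labels do not say what these numbers stand for. Nor do they tie a library to an animal, so the p-values below measure the spread between libraries, part of which may be technical.

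Complex I (NADH:ubiquinone oxidoreductase) takes electrons from NADH, passes them to ubiquinone and pumps protons across the inner mitochondrial membrane. The subunits named here are hydrophobic and, with ND6 from the light strand, form the core of its membrane arm. The remaining subunits are made from nuclear genes and imported. The heavy-strand genes are read as long transcripts that run through many genes and are then cut, largely at the tRNAs that lie between them. Heart muscle works almost without pause and is rich in mitochondria.

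The count tables carry IDs without names, and 0 of the 23669 IDs matched a symbol in the reference table. The names rest on place: the IDs ENSOCUG00000029081 to ENSOCUG00000029117 fill 37 consecutive rows, and a vertebrate mitochondrial genome has that many genes in a fixed order. In that order ND1 is place 6 (ENSOCUG00000029086), ND2 place 10 (ENSOCUG00000029090), ND3 place 25 (ENSOCUG00000029105), ND4L place 27 (ENSOCUG00000029107), ND4 place 28 (ENSOCUG00000029108) and ND5 place 32 (ENSOCUG00000029112). The strand of the counts could be set against this order. Each table counts the fragments on the annotated strand of a gene (own strand) and those on the opposite one (other strand). Of the 28 heavy-strand places, 16 held at least 100 counts over both strands and all libraries, and all 16 had most of them on their own strand, with 0.050% to 13.1% on the other. Over all genes the other strand held 1.29% to 2.39% of the counts in a library, so the heavy-strand places alone say little about the order. Of the 9 light-strand places, 7 reached 100 counts and all 7 had most of them on the other strand, at 52.7% to 99.98%. ND5 also bears the mark of a neighbour on the opposite strand, as ND5 and ND6 are in vertebrates. Its counts on both strands exceeded its count without regard to strand by 227, 226 and 320 fragments in libraries 1, 4 and 6, where for the other 5 subunits the excess was at most 2 in any library. No file used here gives positions, lengths or sequences for these IDs, so levels are not scaled for length and no gene is called more abundant than another. Symbols were not available to check the tissue by its marker genes.

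Depth was alike across libraries, with 9829581 to 12514152 own-strand gene counts, and 3 counts, the limit that a count of 0 allows, corresponded to 0.240 to 0.305 CPM. CPM is the count of a gene per 1000000 own-strand gene counts of its library, and all levels are given in it. Intervals are 95% Wilson intervals, which cover counting error only. Together the 6 subunits took 8735, 9031 and 11237 CPM in libraries 1, 4 and 6, and 1466, 864 and 1868 CPM in libraries 2, 3 and 5. As a share of all counts on the 37 places, this was 5.41%, 6.95% and 8.78% in the first 3 and 1.90%, 1.45% and 2.38% in the others. ND1 and ND2 were counted in every library, at 330 CPM or more. ND3, ND4L, ND4 and ND5 stood at 92.7 to 5582 CPM in libraries 1, 4 and 6 and at 0.102 to 4.37 CPM in libraries 2, 3 and 5. Each title prefix holds libraries of both kinds. In bulk tissue, fewer cells of a type and less RNA per cell cannot be told apart for any of these levels. Why ND3 to ND5 differed so far between libraries, while ND1 and ND2 stayed at 330 CPM or more, was not tested.

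**Figure D1:**
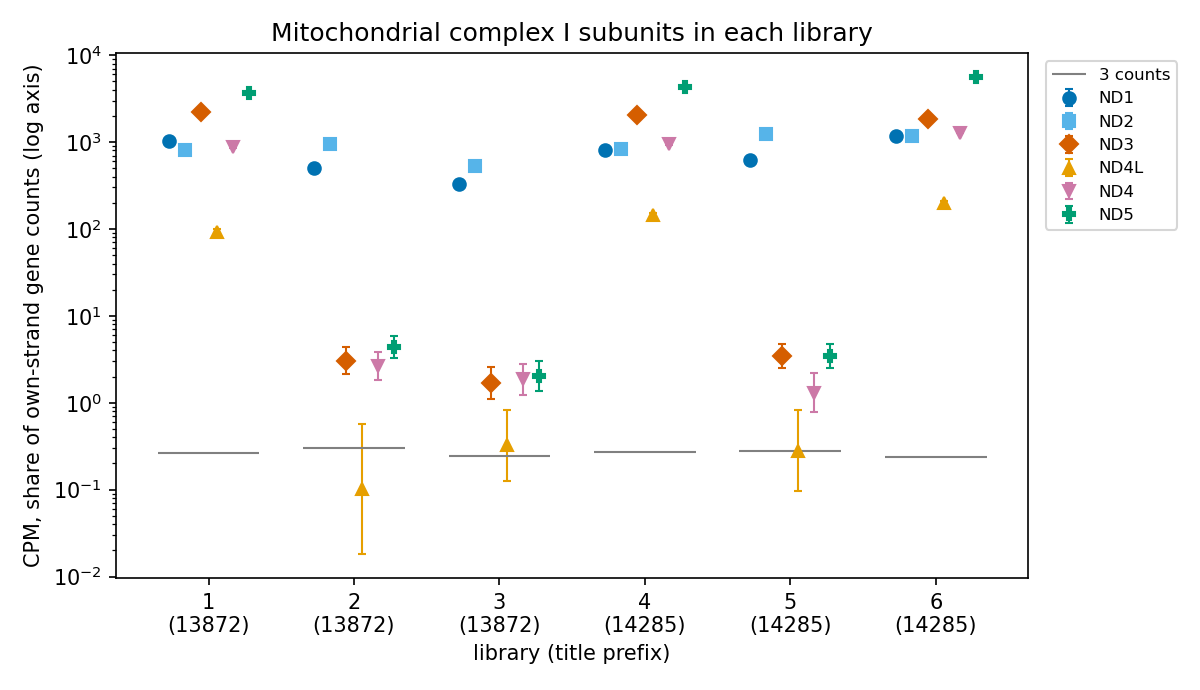
CPM of each subunit (log axis) in libraries 1 to 6, with the title prefix under each library; bars are 95% Wilson intervals and grey lines mark 3 counts. ND1 and ND2 stay between 330 and 1235 CPM throughout, while ND3, ND4L, ND4 and ND5 are at 4.37 CPM or less in libraries 2, 3 and 5.

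ND1 lies in the part of the membrane arm that meets the peripheral arm, where ubiquinone is reduced. Libraries 1, 4 and 6 held it at 1038, 802 and 1163 CPM, above the 502, 330 and 624 CPM of libraries 2, 3 and 5. The lowest 3 libraries were thus the same as for ND3 to ND5, but the highest library exceeded the lowest by only 3.53-fold (exact 95% interval 3.41 to 3.66, counting error only). ND2, a proton-pumping subunit, was at 819, 826 and 1164 CPM in libraries 1, 4 and 6, while libraries 2, 3 and 5 held it at 954, 529 and 1235 CPM. These values interleave, with library 5 highest and library 3 lowest, a range of 2.34-fold (2.27 to 2.41). Libraries 1 and 4 did not differ in ND2 beyond counting error, at intervals of 803 to 836 and 809 to 843 CPM.

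ND1 and ND2 did not keep the same proportion to each other. ND2 had 0.790, 1.03 and 1.001 counts per ND1 count in libraries 1, 4 and 6, but 1.90, 1.60 and 1.98 in libraries 2, 3 and 5. The ratio was above 1.5 in each of the libraries with nearly no ND3 to ND5 and near or under 1 in the rest. Set against COX1, the cytochrome c oxidase subunit at place 16, ND2 had 12.1, 10.2 and 15.3 counts per 1000 COX1 counts in libraries 1, 4 and 6. It had 22.4, 12.9 and 23.7 in libraries 2, 3 and 5, so libraries 2 and 5 were the highest and library 3 lay among the rest. ND1 had 15.4, 9.92 and 15.3 counts per 1000 COX1 counts in libraries 1, 4 and 6, against 11.8, 8.02 and 11.96 in the others, and these values overlapped. The ratios were looked at after the counts were known and carry no test.

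ND3 is a small subunit at the joint of the peripheral and membrane arms, with a loop that takes part in the switch between active and resting enzyme. It had 24925, 22395 and 23072 counts in libraries 1, 4 and 6, or 2218, 2048 and 1844 CPM. In libraries 2, 3 and 5 it had 30, 21 and 37 counts, or 3.05, 1.70 and 3.46 CPM. Library 1 was the highest and library 6 the lowest of the first 3, with intervals that do not overlap (2191 to 2246 against 1820 to 1868 CPM).

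ND4L and ND4 are read from 1 shared mRNA in mammals; ND4L is a short membrane subunit and ND4 pumps protons. ND4L had 1042, 1591 and 2491 counts in libraries 1, 4 and 6, or 92.7, 145 and 199 CPM. It had 1, 4 and 3 counts in libraries 2, 3 and 5, where the upper bound of the interval was 0.576, 0.833 and 0.826 CPM. ND4 had 9803, 10359 and 16083 counts in libraries 1, 4 and 6, or 873, 947 and 1285 CPM, and 26, 23 and 14 counts in libraries 2, 3 and 5, or 2.64, 1.86 and 1.31 CPM. Both were lowest in library 1 and highest in library 6 among the 3 libraries with many counts, the reverse of ND3. ND4 had 9.41 counts per ND4L count in library 1, and 6.51 and 6.46 in libraries 4 and 6.

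ND5, a proton-pumping subunit at the far end of the membrane arm, had the largest SD of log2 CPM of the 6 subunits. It had 41508, 46619 and 69850 own-strand counts in libraries 1, 4 and 6, but only 43, 25 and 37 in libraries 2, 3 and 5. Library 6 exceeded library 3 by 2757-fold (exact interval 1868 to 4261). The same ratio of highest to lowest was 1305-fold for ND3 (853 to 2108) and 981-fold for ND4 (584 to 1795). For ND4L it was 1957-fold, with an interval of 351 to 77313 because its lowest library had 1 count; with that count raised to 3, the ratio was 709-fold. ND5 counts per ND3 count were 1.67, 2.08 and 3.03 in libraries 1, 4 and 6, so these subunits differed in proportion even where both were well counted. Per ND4 count, ND5 had a narrower range in these libraries, 4.23, 4.50 and 4.34.

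In the comparison of ND1 and ND2 with ND3 to ND5 inside each library, depth cancels. For every 1000 counts on ND1 and ND2, the other 4 subunits together had 3704, 4547 and 3828 counts in libraries 1, 4 and 6. In libraries 2, 3 and 5 they had 6.99, 6.89 and 4.58. On the log2 scale, with each subunit weighted alike and counts under 3 raised to 3, ND1 and ND2 minus ND3 to ND5 came to 0.03, -0.36 and -0.13 in libraries 1, 4 and 6. It came to 8.58, 8.44 and 9.24 in libraries 2, 3 and 5. The mean over 6 libraries was 4.30 (exact two-sided sign-flip permutation test, p = 0.219; the smallest p that 6 libraries allow is 0.0312). Since lengths were not used, 0 on this scale does not stand for equal abundance, so the test says little. What the values show is that the contrast moved by more than 8 log2 units between libraries of 1 group, and that no library lay in between.

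**Figure D2:**
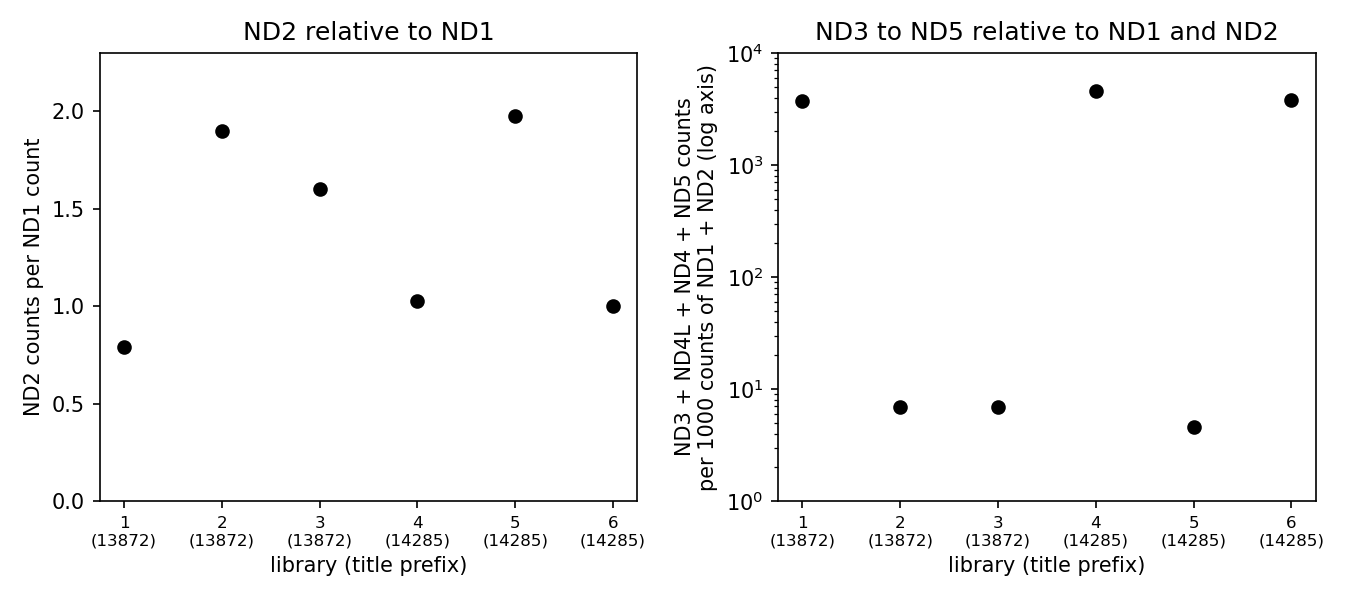
ND2 counts per ND1 count (left, linear axis from 0) and counts of ND3 to ND5 per 1000 counts of ND1 and ND2 (right, log axis), 1 point per library with its title prefix. Libraries 2, 3 and 5 have the higher ratio on the left, 1.60 to 1.98, and the lower on the right, 4.58 to 6.99.

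The spread of each subunit was set beside all IDs with a mean of at least 5 CPM, as the SD over 6 libraries of log2 CPM after TMM scaling. An SD of 1 or more was seen in 0.927% of these 9277 IDs (86 IDs), and in 4 of the 6 subunits. ND5 had the largest SD of all 9277 IDs, 5.75. ND3 ranked 5 at 5.26, ND4 ranked 7 at 4.97 and ND4L ranked 9 at 4.69. ND1, with an SD of 0.75, and ND2, with 0.50, varied far less, but still more than the median ID, whose SD was 0.23. Only 1.90% of IDs had a larger SD than ND1, and 7.02% a larger one than ND2. A range over 100-fold, with counts under 3 raised to 3, was seen in 0.194% of the IDs and in the same 4 subunits.

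The other 7 protein-coding places of the run show how far the division reaches along the mitochondrial genome. Among them, 5 ranged over 100-fold between libraries: COX2, ATP8, ATP6, COX3 and CYTB, which belong to cytochrome c oxidase, ATP synthase and complex III. Their highest library exceeded the lowest by 1369-fold for COX2, 2381-fold for ATP6, 669-fold for COX3 and 1812-fold for CYTB. For ATP8 it was at least 651-fold, as libraries 3 and 5 had no count and were set to 3. COX1 ranged 1.97-fold and ND6, the complex I subunit on the light strand, 23.3-fold on its own strand. Libraries 2, 3 and 5 were the lowest 3 in all 7 and in 5 of the 6 heavy-strand complex I subunits, ND2 being the exception; this order was seen in 1.29% of the 9277 IDs and was picked from these same values. Along the run, ND1, ND2 and COX1 thus ranged from 1.97-fold to 3.53-fold, while ND3, ND4L, ND4 and ND5 ranged over 100-fold, as did the other protein-coding places from COX2 on except ND6. The rRNA places before ND1 ranged 4.43-fold and 4.01-fold and did not order the libraries in this way, with library 1 highest in both. The tRNA-Trp place next to ND2 went with the latter: 3488, 850 and 934 counts in libraries 1, 4 and 6, against 7, 39 and 8 in libraries 2, 3 and 5.

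**Figure D3:**
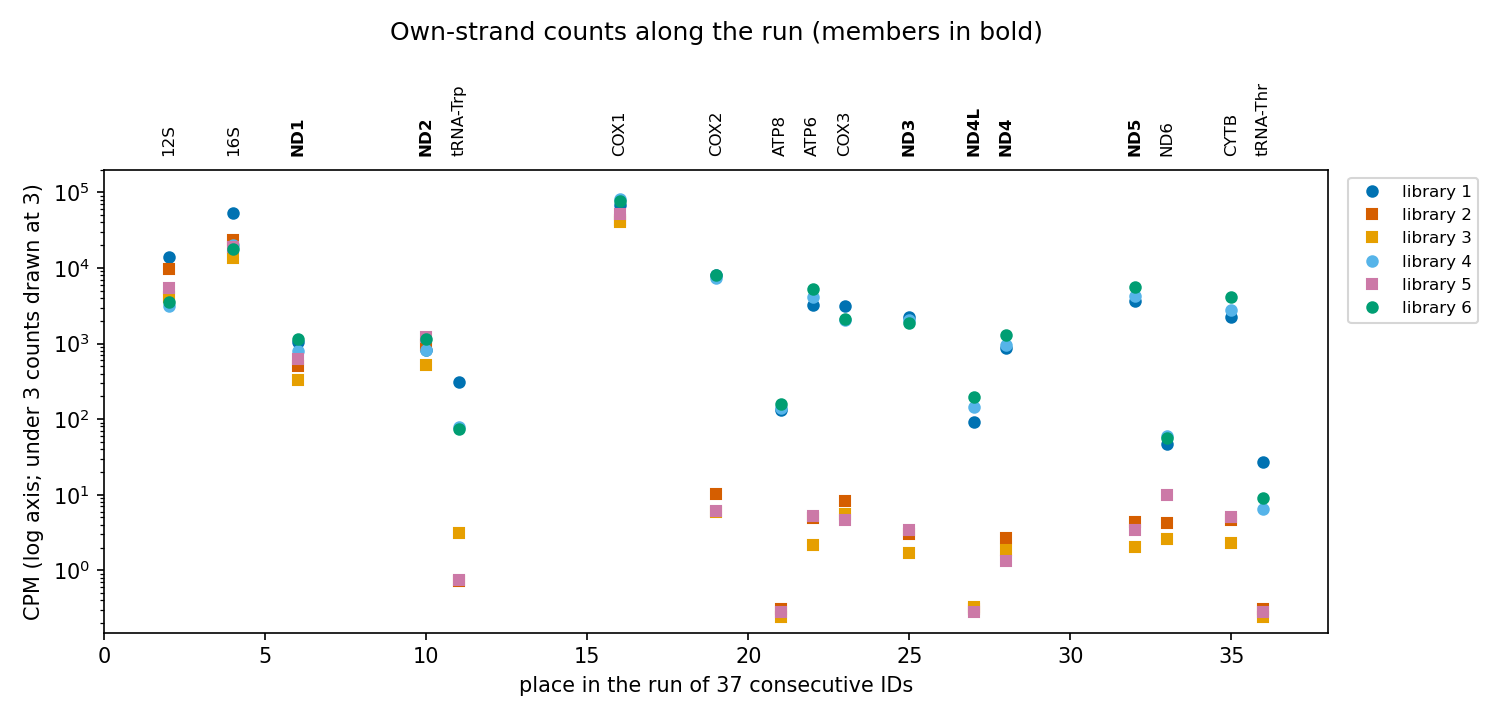
CPM (log axis, own strand) by place in the run of 37 consecutive IDs for the 17 places with 100 or more counts in a library; circles are libraries 1, 4 and 6 and squares libraries 2, 3 and 5, and counts under 3 are drawn at 3. The libraries lie close together at ND1, ND2 and COX1 and apart at the tRNA-Trp place and from COX2 on, less so at ND6.

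The mean-centred log2 CPM profile of ND3, ND4L, ND4 and ND5 over 6 libraries had a root mean square of 4.71. Among the protein-coding places of the run outside complex I, the closest to it were ATP8 and CYTB, at a root mean square difference of 0.19 and 0.30. ATP8 had only 1, 0 and 0 counts in libraries 2, 3 and 5. The rRNA and tRNA places were not compared with this profile. ND1 and ND2 lay 4.13 and 4.61 away. Outside the run, 74 IDs reached both a mean of 5 CPM and an SD of 1. None of these was close: the nearest were ENSOCUG00000004289 at 2.86 and ENSOCUG00000024691 at 3.61. With the sign of the profile turned, ENSOCUG00000025982 lay 1.26 and ENSOCUG00000026762 lay 2.24 away. These IDs stand next to each other in the tables. ENSOCUG00000026762 reached 9519, 8811 and 12344 CPM in libraries 2, 3 and 5, against 272, 307 and 317 CPM in libraries 1, 4 and 6.

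Several classes of fragments that landed on no single gene also set libraries 1, 4 and 6 apart from libraries 2, 3 and 5. They did not all move in the same direction as the 4 subunits. ND3 to ND5 took 0.267%, 0.318% and 0.372% of all fragments in libraries 1, 4 and 6. Fragments placed at several sites made up 6.75% to 7.18% in these libraries and 7.48% to 8.64% in libraries 2, 3 and 5. Those that overlapped more than 1 gene made up 0.113% to 0.124% and 0.019% to 0.022%, in the same order. Fragments that met no gene on its own strand made up 44.5% to 46.5% and 46.9% to 48.2%, again in that order. The part of these fragments in the counts of ND3 to ND5 was not tested. The unmapped share did not follow the subunits: libraries 1, 4 and 6 left 8.20%, 5.16% and 4.75% unmapped and libraries 2, 3 and 5 left 7.27%, 8.94% and 4.71%.

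Counts on the other strand of the heavy-strand subunits lie where light-strand transcripts would run. For ND1 they were nearly level across libraries, at 1305, 1194, 1184, 1019, 1081 and 1259 counts in libraries 1 to 6. Scaled to each library's gene counts they ranged 1.30-fold, while the own-strand counts ranged 3.53-fold. The other strand therefore made up 10.1%, 10.4% and 7.96% of ND1 counts in libraries 1, 4 and 6, but 19.5%, 22.5% and 13.9% in libraries 2, 3 and 5. For ND2 the other strand held 4.10% to 6.82% and ranged 1.92-fold on that scale.

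In ND3 to ND5 the other strand was nearly uncounted in the same libraries as the own strand. For ND5 they numbered 6605, 7291 and 10004 in libraries 1, 4 and 6, against 10, 7 and 8 in libraries 2, 3 and 5. ND4 had 1210, 652 and 999, against 8, 5 and 5. The share on the other strand was 12.5% to 13.7% for ND5 in libraries 1, 4 and 6 and 0.82% to 1.03% for ND3. ND4 had 10.99% in library 1 but 5.92% and 5.85% in libraries 4 and 6, and ND4L had 11.2%, 7.07% and 6.04%, so library 1 was the highest for both. In libraries 2, 3 and 5 the shares rest on 37 counts or fewer over both strands for ND3, ND4L and ND4, and their intervals are wide, such as 12.4% to 40.0% for ND4 in library 2. Over all genes the other strand held 1.97% to 2.39% of counts in libraries 1, 4 and 6 and 1.29% to 1.60% in libraries 2, 3 and 5.

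**Figure D4:**
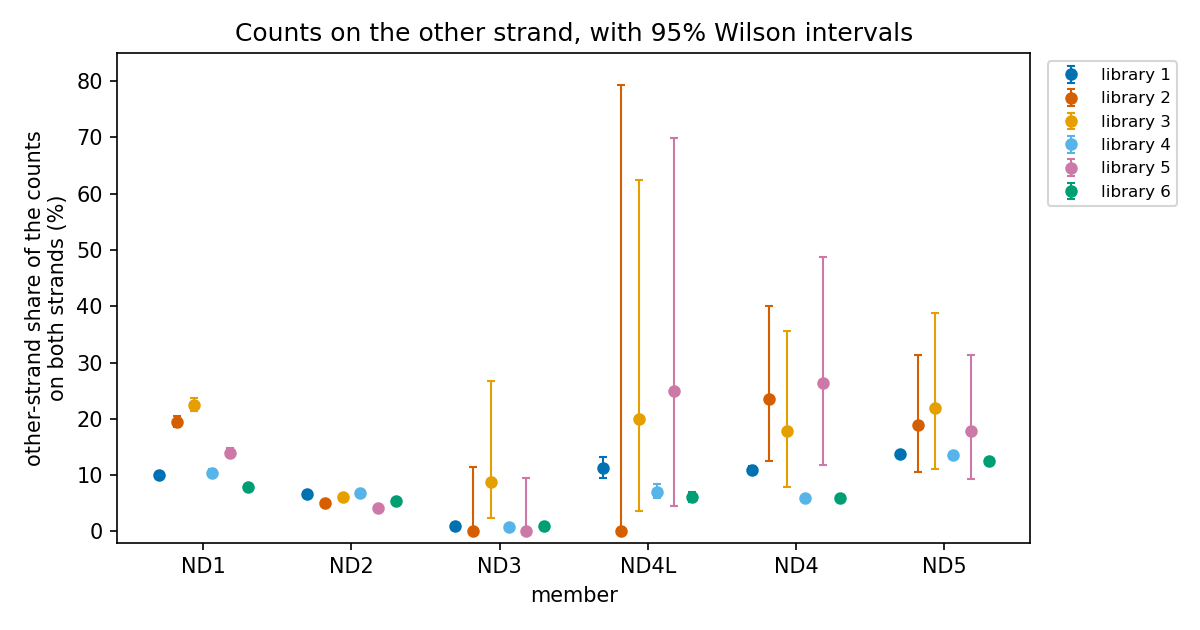
Share of each subunit's counts on both strands that lay on the other strand (percent, linear axis), 1 point per library with its 95% Wilson interval. ND1 is at 13.9% to 22.5% in libraries 2, 3 and 5 against 7.96% to 10.4% in the rest; ND3 to ND5 have wide intervals in libraries 2, 3 and 5.

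The title prefix is the only division that the labels offer, and it was tested over all IDs with edgeR's quasi-likelihood test. Of 11945 IDs tested, 5 (0.0419%) were called at an adjusted p under 0.05, and none of the 6 subunits was among them. At an unadjusted p under 0.05, 0 of the 6 were listed, where 21% of all IDs were. DESeq2 gave neither an unadjusted nor an adjusted p for ND3. Of the other 5 it called 0 after adjustment. It listed 1 of these 5 at an unadjusted p under 0.05, beside 2181 of the 11945 IDs. Without library 1 the unadjusted count was 5 of 6 in edgeR, beside 2177 of the 12134 IDs tested. It was 1 of 6 without library 2, beside 2402 of 12206 IDs, and without library 4, beside 2210 of 12253. In each of these fits 0 of the 6 were called after adjustment. The fitted log2 fold change (14285 over 13872) was above 0 for all 6 subunits, at 0.52 for ND1 (SE 0.43, adjusted p = 0.517, edgeR) and 0.53 for ND2 (SE 0.26, adjusted p = 0.288, edgeR). ND3, ND4L, ND4 and ND5 had log2 fold changes of 0.84, 1.92, 1.38 and 1.44 with SEs of 1.83 to 2.44, and adjusted p of 0.573 to 0.862 (edgeR). The median absolute change was 1.11 for the 6 subunits and 0.24 over all IDs tested, and the former ran from 0.55 (without library 3) to 8.76 (without library 1) with 1 library left out. Library 1 is the only library of prefix 13872 with many counts of ND3 to ND5; without it their log2 fold changes were 8.48 to 10.1, still with adjusted p of 0.178 to 0.186 (edgeR). ND1 ran from 0.19 without library 3 to 1.14 without library 1, and ND3 was at 0.26 without library 2 or library 3.

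Summed over ND1 and ND2, the share of gene counts was 0.139% ± 0.050 (SD, n = 3) under 13872 and 0.194% ± 0.036 (SD, n = 3) under 14285. The exact two-sided permutation test gave p = 0.2, where 3 against 3 cannot go below 0.1. For ND3 to ND5 the shares were 0.230% ± 0.397 and 0.544% ± 0.476 (SD, n = 3 each; exact permutation p = 0.3), with SDs near or above the means because both prefixes hold libraries at the high and the low level. In 0 of the 6 subunits were the libraries of the prefixes apart, while 28.2% of the 9277 IDs at a mean of at least 5 CPM had no overlap.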

How the data were processed

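The authors deposited raw fragment counts per gene for each library, laid out as STAR writes its gene counts. Total RNA was depleted of ribosomal RNA and made into strand-specific paired-end libraries, per the labels' protocols. The submitters' processing notes name STAR, DESeq2 and OryCun2.0 (the genome build). The annotation is not given in the sources used here, nor are settings. The labels name 2 extraction kits without tying them to libraries. Column 4 (own strand) was the main count, column 3 the other strand and column 2 the count without regard to strand. The 4 rows that name no gene were left out of totals.

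Shares, ratios and Wilson intervals were computed from the counts. Prefixes were compared with edgeR 4.0.16 in R 4.3.3 (TMM, filterByExpr, quasi-likelihood test, Benjamini-Hochberg over all IDs, threshold 0.05; SE is the size of the log2 fold change divided by the root of F), tested on simulated data. Single values used exact permutation tests (scipy 1.17.1). Log2 CPM used a prior count of 2. Alternatives were DESeq2 1.42.0, its size factors, no filter, unstranded counts, other denominators, other treatment of low counts and each library left out; ratios from unstranded counts and a block by the number in the title were added after seeing the data. A chi-square test found no library deposited more than once (lowest value over 15 pairs 17.8 per degree of freedom).

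The subunits, the lists and the rule for other IDs (the 2 most alike and the 2 most opposite profiles) were chosen with earlier results of these data known. Lists of nuclear complex I genes and cell type markers were not run, since no ID has a symbol here.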

Additional observations from a re-analysis of the deposited data

Results flagged for a closer look

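Each of 27 sets of 6 values was examined for a lone extreme library. Such a library was found in 1 set, and by chance about 1 set in 20 would have one. The other strand held 8.70% of ND3 counts in library 3, against 0% to 1.03% in the other libraries. This value rests on 2 of 23 counts, and its 95% Wilson interval runs from 2.42% to 26.8%.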

How the results depend on the processing

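No subunit was called between prefixes under the alternatives that gave an adjusted p, except the block below, and the direction of each stayed the same. For ND3 to ND5 the direction could hardly change, here or in the shares by prefix. Libraries 4 and 6 under 14285 had many counts of them, but only library 1 did under 13872. An unadjusted p under 0.05 was also reached by 1 of 6 with no low-count filter, where 3060 of all 18581 IDs reached it. The mean contrast of ND1 and ND2 with ND3 to ND5 was 4.28 with unstranded counts, 4.31 with 0.5 added to each count and 3.43 without ND4L. It ranged from 3.31 to 5.23 with 1 library left out. The sign-flip permutation test gave p of 0.1875 to 0.4375 under these settings. Its kept sign says little, since lengths were not used and 0 does not stand for equal abundance. The shares by prefix kept their direction with every denominator tried. Leaving out 1 library gave differences of 0.028 to 0.078 percentage points for ND1 and ND2 and 0.141 to 0.586 for ND3 to ND5. Under 3 other settings the SD of log2 CPM was 0.65 to 0.74 for ND1 and 0.44 to 0.50 for ND2. These settings were no TMM, unstranded counts and library sizes without the run. The SD was 5.21 to 5.26 for ND3, 4.65 to 4.68 for ND4L, 4.84 to 4.96 for ND4 and 5.70 to 5.75 for ND5. Over all IDs, 5 were lower and 0 higher under 14285. DESeq2 gave 360 lower and 148 higher, and no low-count filter gave 71 lower and 8 higher; the cause was not tested. With 1 library left out, 1 to 2 IDs were lower, in fits with fewer libraries. The planned scaling by length was not run, since no lengths were at hand. ND4L in libraries 2, 3 and 5, at 1 to 4 counts, is at the limit of the depth. The title numbers 3 and 5 occur under both prefixes, and a replicate block by title number was added after seeing the data. It leaves 1 residual degree of freedom and rests on library 4 against 2 and library 6 against 3, since libraries 1 and 5 have no partner. With this block edgeR called 16 IDs higher and 9 lower of the 11945 tested. Of the called IDs, 12 lay in the run. Log2 fold changes were 9.81 for ND3, 9.67 for ND4L, 9.06 for ND4 and 10.7 for ND5 (adjusted p of 0.000195 to 0.000574, edgeR). ND1 (1.35) and ND2 (0.57) were not called. Both pairs set a library with many counts of ND3 to ND5 against a library with nearly none. The calls for these 4 subunits therefore restate the division between libraries already seen. They cannot decide whether the prefixes differ, since the libraries that break that pattern, 1 and 5, have no partner. Partners did not deviate from their prefix means together (r = -0.18 and -0.11 across 9277 IDs, which are not independent). This does not settle whether these libraries share more than a number.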

Other observations

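The few counts left on ND3 to ND5 in libraries 2, 3 and 5 numbered 100, 73 and 91. ND5 made up 43.0% (95% Wilson interval 33.7% to 52.8%), 34.2% (24.4% to 45.7%) and 40.7% (31.1% to 50.9%) of them. In libraries 1, 4 and 6, ND5 made up 53.7%, 57.6% and 62.6%, above each of these intervals. ND4 made up 26% (18.4% to 35.4%) and 31.5% (22% to 42.9%) in libraries 2 and 3, against 12.7%, 12.8% and 14.4% in libraries 1, 4 and 6. In library 5 its share, 15.4% (9.39% to 24.2%), was not distinguishable from these at this depth. ND3 made up 28.8% to 40.7% in libraries 2, 3 and 5 and 20.7% to 32.3% in libraries 1, 4 and 6. The intervals cover counting error only, and the proportions were looked at after the counts were known.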
